A study of Saccharomyces cerevisiae with 3 samples.

Results

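The genes examined here encode the DNA replication machinery of budding yeast: the proteins that mark and license origins, unwind the DNA, copy it, and supply its deoxynucleotides. They were taken by gene name as a list of 39, and all 39 were measured, each by a single probe set, among 5498 probe sets for 5449 genes of Saccharomyces cerevisiae. RNA was hybridized to 3 single-colour Affymetrix arrays. There were 2 arrays labelled RPA12 deletion and 1 array labelled wild type. Both groups are described as the haploid strain BY4741, of mating type a, with his3Δ 1, leu2Δ 0, met15Δ 0 and ura3Δ 0, given no treatment. Harvest is described as in stationary phase after growth in synthetic medium at 30 °C. The title of the wild-type array names neither medium nor phase, though, and the growth protocol given for it names deletion cells. RPA12 codes for a small component of the polymerase that makes ribosomal RNA, RNA polymerase I. Nothing in the labels says that the 2 deletion arrays came from separate cultures or clones. A p-value can therefore reflect at most how far these arrays differ, and that spread may be technical.

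An origin is marked throughout the cell cycle by the origin recognition complex, on which Cdc6 loads the Mcm helicase rings in G1. The kinase Cdc7 with its activator Dbf4, together with Cdc45, then turns loaded rings into moving forks, where DNA polymerase α-primase starts each strand and polymerases ε and δ extend it. The sliding clamp, its loader, the single-strand binding protein RPA, the flap nuclease and DNA ligase complete the fork, and ribonucleotide reductase makes the deoxynucleotides. Many of these genes are transcribed in a burst at the passage from G1 to S phase, and stationary-phase cells mostly rest before that passage. In a bulk culture such as this, fewer cells in S phase and less of a transcript per cell cannot be told apart.

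The deposited values are log2 RMA values, so a difference of 1 is 2-fold. Differences below are the mean of the deletion-labelled arrays minus the wild-type array. The words rose and fell are used under a joint rule. Limma's Benjamini-Hochberg adjusted p over all 5498 probe sets had to be under 0.05, and the difference at least 2-fold. The 2-fold part was needed because 44.2% of the probe sets read exactly the same on both deletion-labelled arrays. Among them were 25 of the 39 replication genes. Limma called even very small differences there. Where the readings were equal no spread was measured, and the limma p-value does not reflect one. The level under which 95% of the probe sets for another yeast species lay was 1.42 on each deletion-labelled array and 1.84 on the wild-type array, and every replication gene was above it on all 3 arrays.

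Some values went against the labels and others did not. RPA12 itself read 5.74 and 5.79 on the arrays labelled as lacking it, against 3.60 on the wild-type array (limma adjusted p = 0.0090). MET17, the gene also called MET15 that the strain description lists as deleted, read 9.43 and 9.36, against 1.56. The labels give mating type a for all 3 arrays. HMRA1, a gene of mating type a, read 1.25 and 1.09, against 7.41, and STE3, expressed in α cells, read 6.89 and 6.81, against 2.11. HMLALPHA1, a gene of mating type α, read 7.08 and 7.05, against 1.13. MF(ALPHA)1, which encodes α-factor, read 8.94 and 8.80, against 1.75. Both differed the same way as STE3. STE2, the a-cell receptor for α-factor, read 6.37 on both, against 5.61, and did not follow HMRA1. Of the other genes that the strain description lists as altered, URA3 was below background on every array, at 1.25, LEU2 was near background, at 1.75 on both deletion-labelled arrays, against 1.91, and HIS3 read 9.27 and 9.30, against 6.73. LYS2, which the description does not list as altered, read 1.42 and 0.97, not above background, against 6.08. The directions below are therefore those of the deletion-labelled arrays relative to the wild-type array. A strain or mating-type difference between the groups cannot be told apart from the deletion. The wild-type array had the lower RPA12 reading, and its growth protocol speaks of deletion cells. Whether the labels of the groups were exchanged was not tested. Median centring lowered every difference by 0.25, and quantile normalization again lowered the median of all tested probe sets by 0.26.

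Within the replication machinery 7 genes rose, 7 fell and 25 did neither. The genes that rose were ORC2, ORC3, ORC5, ORC6, POL12, PRI1 and RFC4, and those that fell were POL1, POL2, POL30, RFA1, RNR1, RNR2 and RAD27. By the same rule 23.8% of all tested probe sets rose and 10.2% fell, against 17.9% in each direction for the replication genes. Their median difference was 0.00, against 0.19 over all tested probe sets. Fork and nucleotide-supply genes made up the falls, while origin recognition genes made up 4 of the 7 rises. The remaining rises, POL12, PRI1 and RFC4, were also of fork genes. After quantile normalization again 2 genes rose (ORC2 and ORC5) and 11 fell, with backgrounds of 16.8% and 15.2%, and the 11 included all 7 of the falls above.

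**Figure D1:**
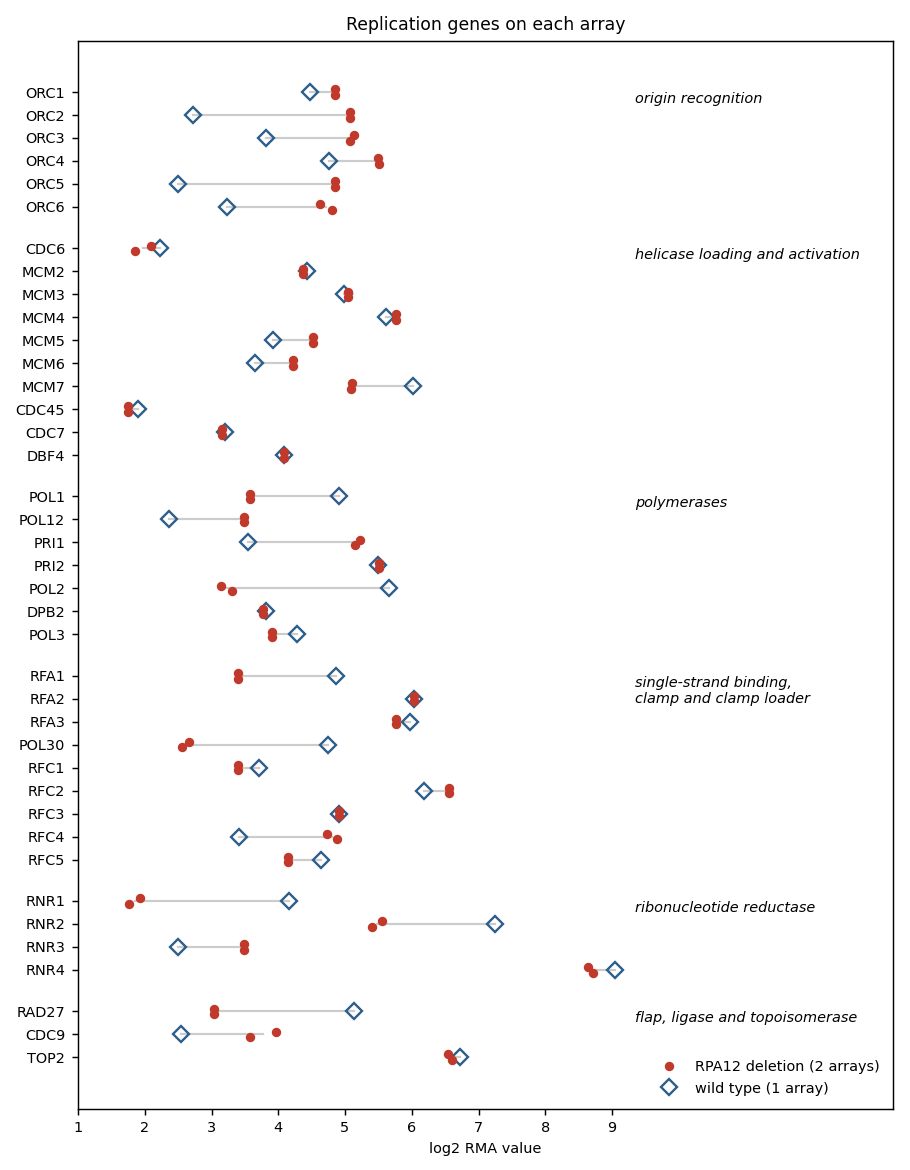
Log2 RMA value (horizontal axis) of each of the 39 replication genes, down the page by complex; filled circles are the 2 arrays labelled RPA12 deletion and the open diamond is the wild-type array. The paired circles lie at most 0.40 apart for every gene, and the distance to the diamond runs from 0 for DBF4, RFA2 and RFC3 to a difference of -2.44 for POL2.

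The origin recognition complex was the group with the most rises: 4 of its 6 subunit genes rose (66.7%, against 23.8% of all tested probe sets). These 4 had means over the 3 arrays between 3 and 5, where 36.5% of the tested probe sets rose. That range was chosen after the values had been seen. The median difference of the 6 was 1.39. ORC2 read 5.08 on both deletion-labelled arrays, against 2.73 on the wild-type array, a 5.10-fold rise (difference 2.35, limma adjusted p = 9.15e-05). ORC5, an ATP-binding subunit, read 4.85 on both, against 2.50, also 5.10-fold (difference 2.35, limma adjusted p = 9.15e-05). The deletion-labelled arrays thus lay far above the wild-type array for both genes, and their equal readings, shared with 44.2% of all probe sets, give no measure of the spread.

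ORC6, which helps to recruit the helicase, read 4.81 and 4.62 on the deletion-labelled arrays (mean 4.71 ± 0.13, SD, n = 2), against 3.24, a 2.78-fold rise (limma adjusted p = 0.0425). ORC3 read 5.08 and 5.13, against 3.81, a 2.46-fold rise (limma adjusted p = 0.0140). These rises were smaller than those of ORC2 and ORC5, and after quantile normalization again they were 0.63 (limma adjusted p = 0.0899) and 0.68, under 2-fold. ORC4 read 5.51 and 5.50, against 4.76, and ORC1, the subunit whose ATPase drives helicase loading, read 4.85 on both, against 4.48. With differences of 0.75 and 0.37, they stayed under 2-fold, although both deletion-labelled arrays lay above the wild-type array for each of the 6 genes. ORC1 was the subunit whose sign turned, to -0.13, after quantile normalization again.

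**Figure D2:**
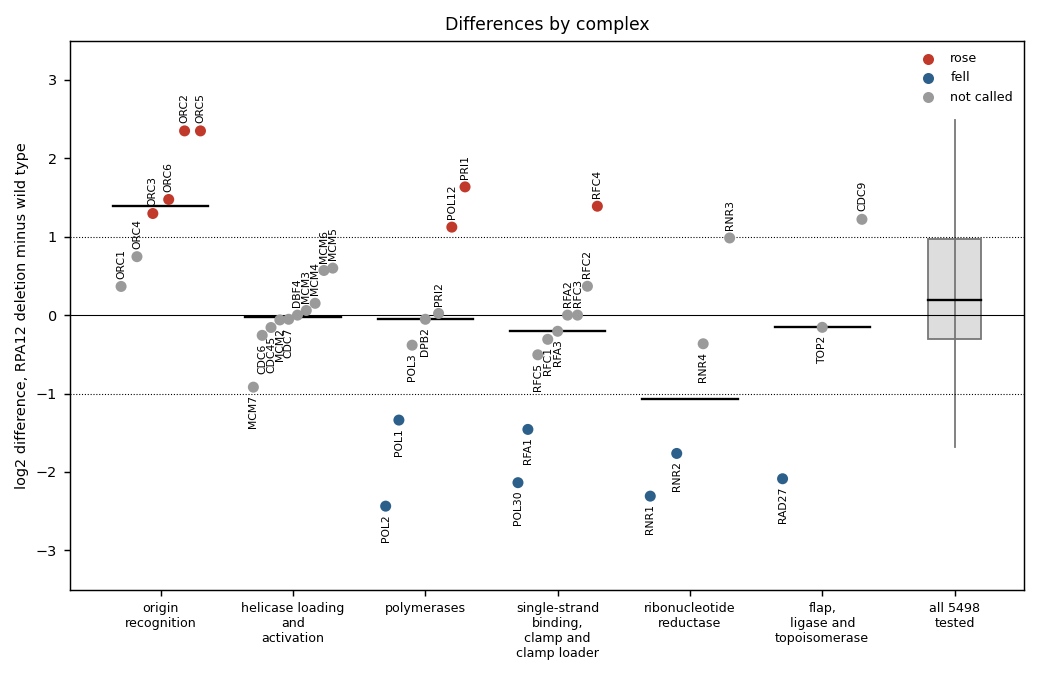
Log2 difference, RPA12 deletion minus wild type (vertical axis), of each replication gene by complex, with black bars for group medians; red genes rose, blue genes fell, and grey genes did neither. The box at the right shows the quartiles and median of all 5498 tested probe sets with a line from the 5th to the 95th percentile, and dotted lines mark 2-fold. The origin genes lie above 0, at a median of 1.39, the ribonucleotide reductase genes have a median of -1.06, and the helicase genes all lie within 2-fold.

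Among helicase loading and activation genes no gene passed the limma-based rule, and the median difference of these 10 was -0.03. At an unadjusted limma p under 0.05 there were 8 of the 10, against 82.5% of all tested probe sets, and 0 were 2-fold apart, against 35.3%. The rings are built of 6 Mcm subunits, and their differences ran from -0.92 to 0.60. MCM7 read 5.09 and 5.11 on the deletion-labelled arrays, against 6.02 on the wild-type array. This difference of -0.92 lay just under 2-fold, and it passed the rule at -1.17 with median centring and at -1.18 with quantile normalization again.

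MCM5 read 4.52 on both deletion-labelled arrays, against 3.93 (difference 0.60), and MCM6 read 4.22 on both, against 3.65 (difference 0.57). As deposited, the other ring genes were nearly level. MCM2 read 4.37 on both, against 4.43, MCM3 read 5.05 on both, against 4.99, and MCM4 read 5.77 on both, against 5.62. CDC6, which encodes the loader, read 1.85 and 2.09, against 2.23, and CDC45, which encodes a component of the active helicase, read 1.75 on both, against 1.91. Both genes lay close to the background levels, which leaves little room for a lower reading. CDC7 read 3.15 on both, against 3.21, and DBF4 read 4.08 on all 3 arrays. After quantile normalization again CDC7 differed by -0.95, DBF4 by -0.73 and MCM2 by -0.66, each under 2-fold.

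The polymerase genes went in both directions, with 2 rises and 2 falls among 7 and a median difference of -0.05. Each count is 28.6% of the list, against 23.8% of all tested probe sets that rose and 10.2% that fell. Polymerase α-primase, which lays the RNA-DNA primers, was split within the complex. POL1, its catalytic subunit, read 3.57 on both deletion-labelled arrays, against 4.91, a 2.53-fold fall (difference -1.34, limma adjusted p = 9.15e-05). POL12, its accessory subunit, read 3.49 on both, against 2.37, a 2.18-fold rise (difference 1.12, limma adjusted p = 9.15e-05). PRI1, the catalytic primase subunit, read 5.15 and 5.22 (mean 5.18 ± 0.050, SD, n = 2), against 3.55, a 3.11-fold rise (difference 1.64, limma adjusted p = 0.0142). PRI2, its partner, was level at 5.51 on both, against 5.49. The direction of each of these rises was kept under both other scalings, but POL12 was under 2-fold in each (0.87 and 0.29), and PRI1 was so after quantile normalization again (0.96).

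POL2, the catalytic subunit of the leading-strand polymerase ε, had the largest fall of the 39 genes. It read 3.31 and 3.15 on the deletion-labelled arrays (mean 3.23 ± 0.12, SD, n = 2), against 5.66 on the wild-type array, 5.41-fold lower (difference -2.44, limma adjusted p = 0.0221), and 2.42% of all tested probe sets had a lower difference. DPB2, the essential second subunit of the same enzyme, was level as deposited, at 3.77 on both, against 3.82. After quantile normalization again the DPB2 difference was -0.86, still under 2-fold. POL3, the catalytic subunit of the lagging-strand polymerase δ, read 3.90 on both, against 4.29. Its difference of -0.38 became -1.07 after quantile normalization again (limma adjusted p = 0.0021), where it passed the rule.

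Around the clamp, POL30 and RFA1 fell and RFC4 rose. Of these 9 genes 22.2% fell and 11.1% rose, against 10.2% and 23.8% of all tested probe sets. Their median difference was -0.21. POL30 encodes PCNA, the ring that tethers polymerases to DNA, and it read 2.56 and 2.66 on the deletion-labelled arrays (mean 2.61 ± 0.066, SD, n = 2), against 4.75, 4.40-fold lower (difference -2.14, limma adjusted p = 0.0144). RFA1, the large DNA-binding subunit of RPA, read 3.40 on both, against 4.86, 2.75-fold lower (difference -1.46, limma adjusted p = 9.15e-05). Its partner subunits were closer to equal, with RFA2 at 6.04 on all 3 arrays and RFA3 at 5.77 on both, against 5.97.

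The clamp loader was not uniform either. RFC4 read 4.88 and 4.73 on the deletion-labelled arrays (mean 4.80 ± 0.11, SD, n = 2), against 3.41, a 2.62-fold rise (difference 1.39, limma adjusted p = 0.0360), which was 0.63 after quantile normalization again (limma adjusted p = 0.0759). RFC1, the large subunit, read 3.40 on both, against 3.71, and RFC5 read 4.14 on both, against 4.64. Both of these small decreases passed the rule after quantile normalization again, at -1.11 and -1.10. RFC2 read 6.56 on both, against 6.19, and RFC3 read 4.91 on all 3 arrays.

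Ribonucleotide reductase, which turns ribonucleotides into deoxynucleotides, had 2 falls among 4 genes and a median difference of -1.06. That share of falls is 50%, against 10.2% of all tested probe sets. RNR1, the main large subunit, read 1.77 and 1.93 on the deletion-labelled arrays (mean 1.85 ± 0.11, SD, n = 2), against 4.16 on the wild-type array, 4.95-fold lower (difference -2.31, limma adjusted p = 0.0226). RNR2, the small subunit that holds the iron cofactor, read 5.40 and 5.55 (mean 5.48 ± 0.11, SD, n = 2), against 7.24, 3.40-fold lower (difference -1.76, limma adjusted p = 0.0278). On the deletion-labelled arrays RNR1 lay only slightly above background, while RNR2 was well above it.

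The partner gene of each subunit did not pass the rule. RNR3, the alternative large subunit best known for its induction by DNA damage, read 3.49 on both deletion-labelled arrays, against 2.50. Its difference of 0.98 was just under 2-fold and shrank to 0.09 after quantile normalization again. RNR4, the second small subunit, which lacks the iron site, read 8.72 and 8.63, against 9.04 (difference -0.37, limma adjusted p = 0.0859). RNR1 and RNR3, and RNR2 and RNR4, are pairs of related sequence, and whether their probe sets share signal was not tested.

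Of the genes for finishing the lagging strand, RAD27 fell. It encodes the flap nuclease that trims Okazaki fragments and read 3.04 on both deletion-labelled arrays, against 5.13, 4.25-fold lower (difference -2.09, limma adjusted p = 9.15e-05). CDC9, the DNA ligase that seals the same fragments, read 3.57 and 3.97 (mean 3.77 ± 0.28, SD, n = 2), against 2.55. This was the widest gap between the deletion-labelled arrays of any replication gene, and the difference of 1.22, although past 2-fold, missed the limma threshold (adjusted p = 0.126). TOP2, the topoisomerase that untangles daughter chromosomes, read 6.60 and 6.54, against 6.72.

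**Figure D3:**
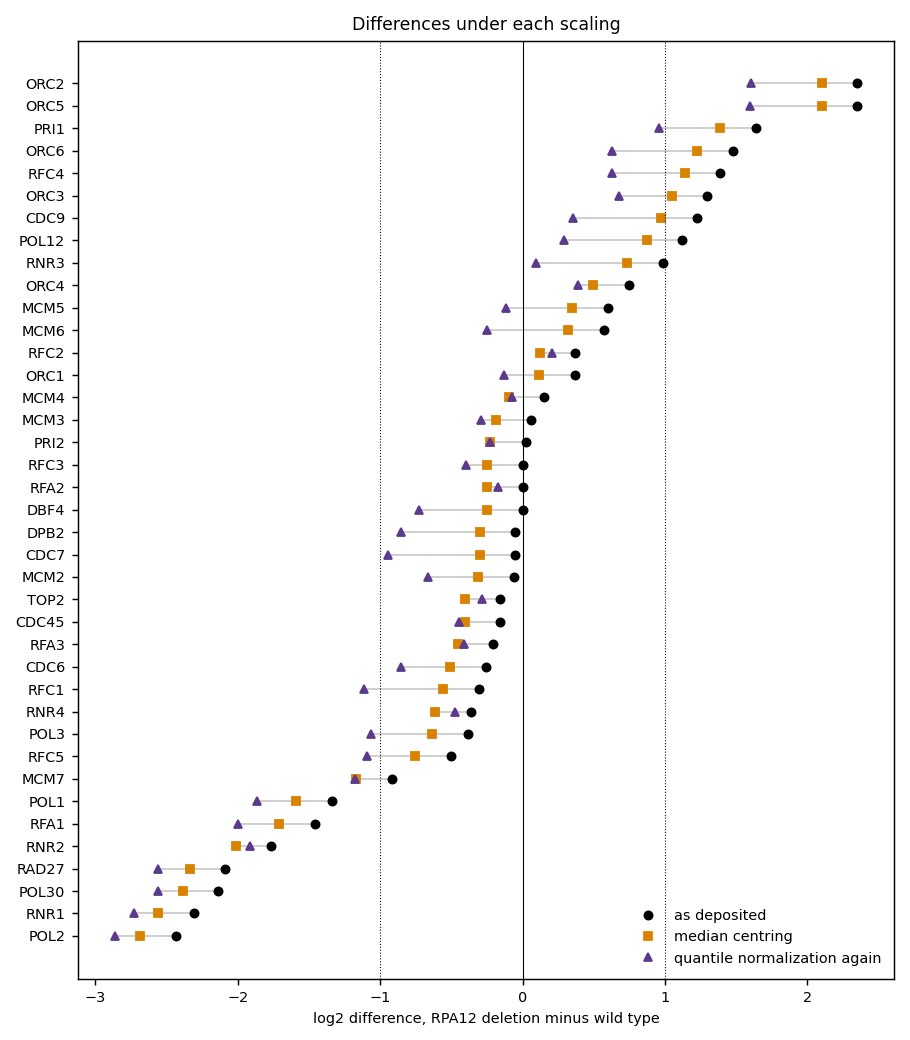
Log2 difference, RPA12 deletion minus wild type (horizontal axis), of each replication gene (down the page, ordered by the deposited values) with the values as deposited (circles), after median centring (squares) and after quantile normalization again (triangles); dotted lines mark 2-fold. The 7 genes that fell stay beyond -1 in all 3, whereas of the 7 that rose ORC2 and ORC5 stay beyond 1 in all 3.

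The scaling mattered more in the range where most of these genes lie than over all tested probe sets. Among the 39, 25 had a mean over the 3 arrays between 3 and 5, and in that range quantile normalization again lowered the difference of the 1360 tested probe sets by a median of 0.63, against a median of 0.22 over all 5498. As deposited, 36.5% of those 1360 probe sets rose and 9.85% fell, and their median difference was 0.53. The 25 replication genes there had 7 rises and 5 falls and a median of 0.00. This range was chosen after the values had been seen.

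Coding length was set against the differences. Over all 5449 genes Spearman's rho between coding length and the difference was -0.17, and the median difference was -0.16 for the 461 genes over 3000 bases and 0.42 for the 1773 genes of up to 900 bases. Over the 39 replication genes rho was -0.09, and over the 63 related genes described below it was -0.34. When the median difference of genes of like length was subtracted, the 14 rises and falls of the replication genes were kept, and 7 of the related genes rose and 8 fell. Genes are not independent replicates, and they share the same 3 arrays.

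A further 63 genes of fork assembly, nucleotide supply, replication-coupled chromatin, cohesion and the G1/S switch were listed by function. Of these, 9 rose and 8 fell. Their median difference was 0.00, and 50 of the 63 were above background on every array. These shares, 14.3% and 12.7%, stand beside 23.8% and 10.2% for all tested probe sets. After quantile normalization again 6 of these genes rose and 15 fell, with backgrounds of 16.8% and 15.2%, so not every rise below was kept.

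Genes of the GINS complex, which joins Cdc45 and the Mcm ring in the active helicase, held the largest rises. PSF1 read 6.67 and 6.65 on the deletion-labelled arrays, against 2.18 on the wild-type array, 22.2-fold higher (limma adjusted p = 0.0015), and PSF2 read 6.12 and 6.04, against 2.79, 9.82-fold higher (limma adjusted p = 0.0084). The other subunits differed less: SLD5 read 3.75 and 3.72, against 2.81, and PSF3 read 5.56 and 5.59, against 5.49. PSF1 and PSF2 were the only rises or falls among 14 firing and fork factors (14.3% rose, against 23.8% of all tested probe sets). Among the other polymerase subunits, DPB4 of polymerase ε read 5.91 on all 3 arrays and DPB3 6.17 and 6.16, against 5.64. POL31 of polymerase δ read 5.37 and 5.41, against 4.40 (difference 0.99, just under 2-fold), and POL32 3.40 on both, against 3.07.

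The alternative clamp loader that serves sister chromatid cohesion was split as polymerase α-primase was. DCC1 read 5.11 and 5.15, against 2.39, 6.65-fold higher (limma adjusted p = 0.0050), and CTF8 read 6.71 and 6.77, against 4.08, 6.30-fold higher (limma adjusted p = 0.0074). CTF18, the large subunit of that loader, read 1.59 on both, against 3.68, 4.27-fold lower (limma adjusted p = 9.15e-05). Of 7 further lagging-strand and topoisomerase genes, TOP1, a swivel for DNA ahead of the fork, read 5.05 and 4.95, against 3.33, a 3.18-fold rise (limma adjusted p = 0.0202). RNH201, the catalytic subunit of RNase H2, read 2.79 on both, against 1.53, which is not above background and gives a rise of at least 1.93-fold. These 2 rises are 28.6% of that list, against 23.8% of all tested probe sets. The rule used the deposited values, by which RNH201 was 2.40-fold higher, whereas its bound lies under 2-fold.

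**Figure D4:**
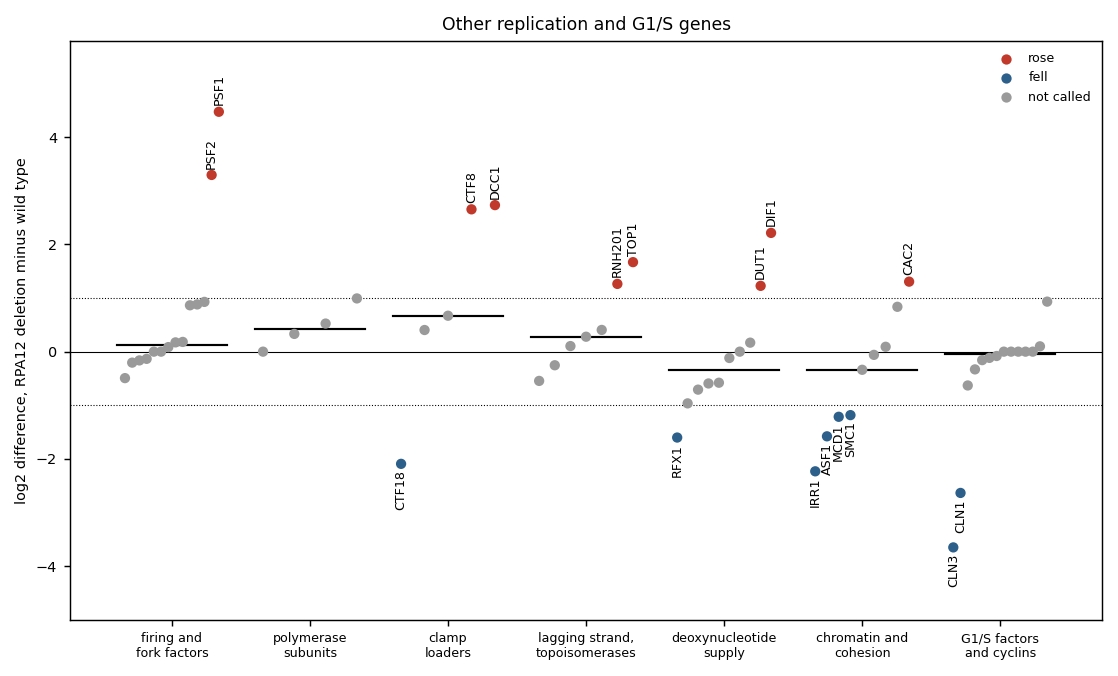
Log2 difference, RPA12 deletion minus wild type (vertical axis), of 63 other replication and G1/S genes in 7 lists; black bars are list medians, dotted lines mark 2-fold, and the named genes are the 9 that rose (red) and the 8 that fell (blue). PSF1 stands highest at 4.47 and CLN3 lowest at -3.65.

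In the control of deoxynucleotide supply 2 genes rose and 1 fell among 10. These shares, 20% and 10%, were near the 23.8% and 10.2% of all tested probe sets. DIF1, which brings the small reductase subunits into the nucleus, read 6.48 and 6.59, against 4.32, 4.64-fold higher (limma adjusted p = 0.0166), and DUT1, the dUTPase that keeps uracil out of DNA, read 6.42 and 6.48, against 5.22, 2.34-fold higher (limma adjusted p = 0.0160). RFX1, also called CRT1, the repressor of RNR2, RNR3 and RNR4, read 4.77 and 4.60, against 6.29, 3.04-fold lower (limma adjusted p = 0.0358). Of those genes, RNR2 fell, RNR3 was just under 2-fold at 0.98, and RNR4 differed by -0.37. A link between the RFX1 reading and these differences was not tested.

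Replication-coupled chromatin and cohesion genes had 4 falls and 1 rise among 9. These shares, 44.4% and 11.1%, stand beside 10.2% and 23.8% of all tested probe sets. IRR1, a cohesin subunit, read 1.75 and 1.91, against 4.06, 4.70-fold lower (limma adjusted p = 0.0232). SMC1, another cohesin subunit, read 3.65 on both, against 4.83, 2.27-fold lower (limma adjusted p = 9.15e-05). MCD1, the subunit cleaved at anaphase, read 1.42 on both, at background, against 2.63, at least 2.32-fold lower (limma adjusted p = 9.15e-05). The histone chaperone gene ASF1 read 3.14 and 2.99, against 4.64, 2.99-fold lower (limma adjusted p = 0.0331), while CAC2, a subunit of the chromatin assembly factor behind the fork, read 5.21 and 5.23, against 3.92, 2.47-fold higher (limma adjusted p = 0.0038).

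At the G1/S switch the cyclins CLN3 and CLN1 fell, and no transcription factor of the list passed the limma-based rule. At an unadjusted limma p under 0.05 there were 7 among the 14 genes of the list, against 82.5% of all tested probe sets, and 2 were 2-fold apart, against 35.3%. CLN3, the most upstream G1 cyclin, read 2.25 and 2.50, against 6.02, 12.6-fold lower (limma adjusted p = 0.0222), and CLN1 read 1.37 and 1.42, not above background, against 4.03, at least 6.11-fold lower (limma adjusted p = 0.0061). CLN2 read 1.59 on both, against 2.22. The S-phase cyclin genes gave equal readings, with CLB5 at 5.02 on all 3 arrays and CLB6 at 1.25 on all 3, below background. SWI4, the DNA-binding subunit of SBF, read 3.21 on all 3 arrays, and MBP1, that of MBF, read 4.72 and 4.56, against 4.72. SWI6, with the highest difference of the list, read 4.99 on both deletion-labelled arrays, against 4.06 (difference 0.93, under 2-fold).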

How the data were processed

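Total RNA was converted to biotinylated cRNA and hybridized to 1 array a sample, per the labels' protocols. The authors deposited log2 values per probe set, made by RMA in Affymetrix Expression Console, per the submitters' processing notes. For the versions and the arrays of the run, the sources used here give nothing. The method puts all arrays of a run onto a common distribution and combines probes by median polish, which with few arrays can return the same value for several arrays. The platform annotation names a single gene for 7244 of 10928 probe sets; 5498 matched S. cerevisiae genes through gene identifiers of assembly R64 (12 symbols updated) and 1746 belonged to another species and served as background. Where no array of a group is above background, the fold is a bound, given as "at least" and computed with the dim values raised to that level. The test was limma (version 3.58.1, R 4.3.3), lmFit and eBayes, two-sided, over all 5498 probe sets; the lone wild-type array is assumed to vary like the others. The script was tested on simulated data with known changes. The number of arrays limits the precision. All replication genes are named; of each other list, those that passed the rule (at most 4), all members of lists of up to 4, and all G1/S cyclins. SLD5, PSF3, SMC1, SWI4, MBP1 and SWI6 were added after their values were seen. The label checks other than RPA12 are the listed strain and mating-type markers. The genes, lists and the 2-fold rule were chosen with earlier results of these data known. For the wild-type array the genotype was followed, although its growth protocol speaks of deletion cells.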

Additional observations from a re-analysis of the deposited data

How the results depend on the processing

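Quantile normalization again gave 2 rises and 11 falls among the replication genes, and 6 rises and 15 falls among the 63 related genes, against 16.8% and 15.2% of all tested probe sets, and it moved the median difference of the replication genes to -0.40; median centring moved that median to -0.25 and subtraction of the length-class median, an alternative chosen after seeing the data, to -0.061. By limma's adjusted p alone, 16 replication genes were higher and 16 lower, and 22 and 19 related genes, against 50.4% and 29.7% of all tested probe sets. Quantile normalization again turned the sign of ORC1 (-0.13), MCM3 (-0.29), MCM4 (-0.074), MCM5 (-0.11), MCM6 (-0.25) and PRI2 (-0.23), and median centring that of MCM3 (-0.19), MCM4 (-0.10) and PRI2 (-0.23), while the length classes turned PRI2 to -0.050; none of these was 2-fold apart in any setting. The cause was not tested. By 2-fold alone, 8 were higher and 7 lower, against 24.4% and 11.0%. Without either deletion-labelled array, which leaves 1 array a group and no test, 8 were 2-fold higher and 7 lower, against 24.4% and 10.9% to 11.1%, all 14 calls among them, with CDC9 added. The trended fit, leaving out dim probe sets, averaging probe sets of a gene and the length classes kept the same 14 calls. No paired analysis was possible because there is 1 wild-type array and it carries no replicate number.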

Other observations

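The deposited values of the replication genes fall on a grid that they share with other genes. On the arrays labelled RPA12 deletion 29 and 31 of the 39 genes had exactly the value of at least 1 other tested probe set, against 11 on the wild-type array. Over all tested probe sets these shares were 65.7% and 65.9% on the deletion-labelled arrays, against 23.7% on the wild-type array, and the 5498 values were made up of 2250 and 2229 distinct numbers, against 4384. ORC1 and ORC5 had the same value of 4.85 on the deletion-labelled arrays, ORC2 and ORC5 had the same difference of 2.35, and CDC7 and DPB2 the same difference of -0.05. Of all tested probe sets 434, or 7.89%, read the same on all 3 arrays, and DBF4, RFA2 and RFC3 are among them, so a difference of 0.00 here carries no measured spread.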
